A study of Mus musculus with 16 samples.

Results

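The 10 apolipoprotein genes Apoa1, Apoa2, Apoa4, Apoa5, Apob, Apoc1, Apoc2, Apoc3, Apoe and Apom were taken by symbol from the 40324 gene symbols of the liver count table. All 10 had a line in the table, and all 10 passed the filter on low counts, among 14476 genes that did. The livers came from littermate db/db mice, a strain whose leptin receptor is defective and which develops obesity and diabetes. The arcA group of 8 mice had been injected with AAV8, a liver-tropic adeno-associated virus, encoding arcA, and the control group of 8 mice with AAV8 encoding GFP. Mice of both groups were db/db, were injected at about 5 weeks of age and were 10 weeks old at sampling, 5 weeks after injection. Neither the product of arcA nor the promoter that drove the vectors is named in the labels, and no lean or uninjected group was analysed here. In some bacteria, a gene of that name encodes arginine deiminase.

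Apolipoproteins are the protein part of the particles that carry lipid in blood. The liver assembles apolipoprotein B with triglyceride into very low density lipoprotein and secretes apolipoprotein A-I, which takes up cholesterol in the periphery to form high density lipoprotein. The smaller exchangeable apolipoproteins move between particles and decide their fate: some activate or inhibit the lipases that unload triglyceride, and apolipoprotein E is the ligand by which the liver takes remnants back. Macrophages also transcribe Apoe and its neighbours Apoc1, Apoc2 and Apoc4.

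In the GENCODE M21 annotation of GRCm38, 7 of the 10 genes lay in 2 clusters. Apoa1 (chr9:46228580-46230466), Apoc3 (chr9:46232933-46235636), Apoa4 (chr9:46240696-46243459) and Apoa5 (chr9:46268633-46271919) were neighbours on chromosome 9, with Apoc3 on the minus strand and the other 3 on the plus strand. Apoe (chr7:19696109-19699188), Apoc1 (chr7:19689481-19692660) and Apoc2 (chr7:19671579-19677941) lay on the minus strand of chromosome 7, with Apoc4 between Apoc1 and Apoc2. Apob (chr12:7977648-8016835), Apoa2 (chr1:171225054-171226379) and Apom (chr17:35128997-35132050) stood alone. All 10 are protein coding, and the counts covered their exons as a whole.

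The results turn on Apoc2 and Apoa4, and on each gene set against a neighbour of its own cluster. RefSeq promoters on GRCm38.p6, from 250 bases before to 50 bases after the annotated start, were found for 8 of the 10 genes, and those of Apoc2, Apoe, Apoa4 and Apoa1 are given here from 5′ to 3′. They lie at chr7:19677892-19678191 (minus strand, Apoc2), chr7:19699139-19699438 (minus strand, Apoe), chr9:46240594-46240893 (plus strand, Apoa4) and chr9:46228380-46228679 (plus strand, Apoa1). Capitals mark the hexamer AGGTCA or its reverse complement, the core element bound by many nuclear receptors.
Apoc2: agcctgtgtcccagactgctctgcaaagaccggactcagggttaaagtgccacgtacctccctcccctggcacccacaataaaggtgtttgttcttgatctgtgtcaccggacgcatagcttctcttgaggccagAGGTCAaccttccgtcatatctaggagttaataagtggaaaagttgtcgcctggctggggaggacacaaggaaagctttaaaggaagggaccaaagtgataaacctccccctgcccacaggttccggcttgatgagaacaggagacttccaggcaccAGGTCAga
Apoe: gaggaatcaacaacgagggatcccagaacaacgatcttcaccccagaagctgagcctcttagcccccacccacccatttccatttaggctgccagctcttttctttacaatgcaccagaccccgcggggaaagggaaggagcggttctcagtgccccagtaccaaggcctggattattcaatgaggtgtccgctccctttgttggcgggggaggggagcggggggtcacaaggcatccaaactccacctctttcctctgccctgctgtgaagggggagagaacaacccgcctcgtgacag
Apoa4: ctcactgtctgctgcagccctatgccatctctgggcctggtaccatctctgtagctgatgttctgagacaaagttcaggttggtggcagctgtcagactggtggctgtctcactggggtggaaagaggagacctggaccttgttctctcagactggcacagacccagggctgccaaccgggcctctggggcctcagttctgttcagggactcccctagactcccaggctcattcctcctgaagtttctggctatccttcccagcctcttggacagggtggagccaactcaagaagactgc
Apoa1: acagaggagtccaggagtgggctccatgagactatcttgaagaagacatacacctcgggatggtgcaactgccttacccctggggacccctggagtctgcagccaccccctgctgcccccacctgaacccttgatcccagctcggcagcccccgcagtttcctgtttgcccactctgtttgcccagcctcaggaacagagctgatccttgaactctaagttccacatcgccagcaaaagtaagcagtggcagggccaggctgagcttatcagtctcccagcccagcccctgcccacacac
The Apoc2 window held the hexamer at 2 places, starting 115 bases before and 42 bases after the RefSeq start, and the other 7 member windows held none. Of 27025 promoters of the same length, 16% held it on either strand, as did 12.8% of the 10338 that belong to tested genes. The longer nuclear receptor sequence CAAAGTCCA, which HNF4A prefers, was in 0 of the 8 windows. It was in 0.477% of all promoters and 0.561% of those of tested genes. The letters TATAAA, searched on both strands, were in the windows of Apoa2, Apoa5 and Apob. They were in 14.2% of all promoters and 7.48% of those of tested genes. The RefSeq start lies downstream of the GENCODE start by 148 bases for Apoa4, 249 for Apom, 50 for Apoa1 and 29 for Apob. The Apom window thus lies almost wholly within the annotated gene and does not describe the sequence before its GENCODE start. Such matches are a description of the letters and not of bound sites.

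Libraries held 37325608 to 45874793 counts in arcA livers and 28912561 to 53520828 in GFP livers. The 10 genes took 4.51% ± 0.381 of all counts in arcA livers and 4.38% ± 0.391 in GFP livers (SD, n = 8 each), and Apoe alone took 1.76% to 2.48% in arcA livers and 1.74% to 2.33% in GFP livers. Counts per member ranged from 795 (Apom) to 1244443 (Apoe) in a library, so counting error was small beside the spread between mice. Hepatocyte markers were abundant, with a summed level of 115552 to 137877 CPM in arcA livers and 98252 to 120343 CPM in GFP livers. CPM are counts scaled to library size, here after TMM, the library scaling of edgeR. Gm42418, which overlaps ribosomal RNA sequence, took 2.45% to 7.37% of counts in arcA livers and 2.29% to 19.4% in GFP livers. It was highest in GFP 2, 3 and 5.

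Set per kilobase of the principal transcript, the transcripts spanned a wide range. Apoe averaged 15945 ± 1630 CPM per kilobase in arcA livers and 14469 ± 377 in GFP livers (SD, n = 8 each), and Apoa2 averaged 15364 ± 2361 in arcA livers and 14198 ± 1375 in GFP livers. These 2 leading levels did not differ beyond their spread. Apoc1 followed at 11542 ± 1846 in arcA livers and 10929 ± 930 in GFP livers, then Apoc3 at 4088 ± 770 in arcA livers and 4085 ± 337 in GFP livers. Apoa1, the main protein of high density lipoprotein, came next, at 1136 ± 425 in arcA livers and 2036 ± 1069 in GFP livers.

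Apoc2 at 458 ± 44.0 and Apoa5 at 444 ± 61.0 CPM per kilobase could not be ordered in arcA livers, nor at 596 ± 95.5 and 501 ± 52.5 in GFP livers. Apob, whose transcript is 13934 bases long, averaged 286 ± 33.3 per kilobase in arcA livers and 268 ± 21.4 in GFP livers. Apoa4 was lower still, at 56.7 ± 13.0 in arcA livers and 115 ± 46.4 in GFP livers. Apom was the lowest, at 32.2 ± 4.39 in arcA livers and 30.5 ± 6.71 in GFP livers. By principal transcript, the order of the 10 means was the same in both groups. With the length of all annotated exons in place of the principal transcript, Apoa2 (14821 in arcA livers and 13696 in GFP livers) stood above Apoe (10501 in arcA livers and 9529 in GFP livers). By that length, the order of Apoc2 and Apoa5 differed between the groups. Their means were 410 and 443 in arcA livers and 533 and 500 in GFP livers.

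The comparison of arcA with GFP livers asked how arcA changed the liver transcriptome. Among the apolipoprotein genes, Apoa4 and Apoc2 were lower in arcA livers, Apoa4 to about 0.493 of its GFP level and Apoc2 to 0.769 of it. The abundant transcripts Apoe, Apoa2, Apoc1, Apob and Apoc3 had log2 fold changes between 0.001 and 0.14, and none of these passed. Together with Apom (0.08), their values were negative, from -0.192 to -0.067, when libraries were scaled on 14 hepatocyte genes, which moved the median of all genes to -0.198. With TMM scaling, 3 of these 14 genes themselves passed as higher and 0 as lower, at a median log2 fold change of 0.21. Scaling on them therefore lowers the values of other genes. In all, 0 of the 10 genes passed as higher and 2 as lower by edgeR's quasi-likelihood test with Benjamini-Hochberg adjustment over all 14476 genes tested (threshold 0.05). Over all genes, 10.8% passed, 4.27% as higher and 6.57% as lower. At an unadjusted p below 0.05 there were 3 members and 3608 genes in all. DESeq2 and limma voom also called 0 members higher and 2 lower. The median log2 fold change was 0.04 over the members and 0.009 over all genes tested. The 2 groups overlapped for each of the 10 genes, and they did not overlap for 1.76% of all genes.

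**Figure D1:**
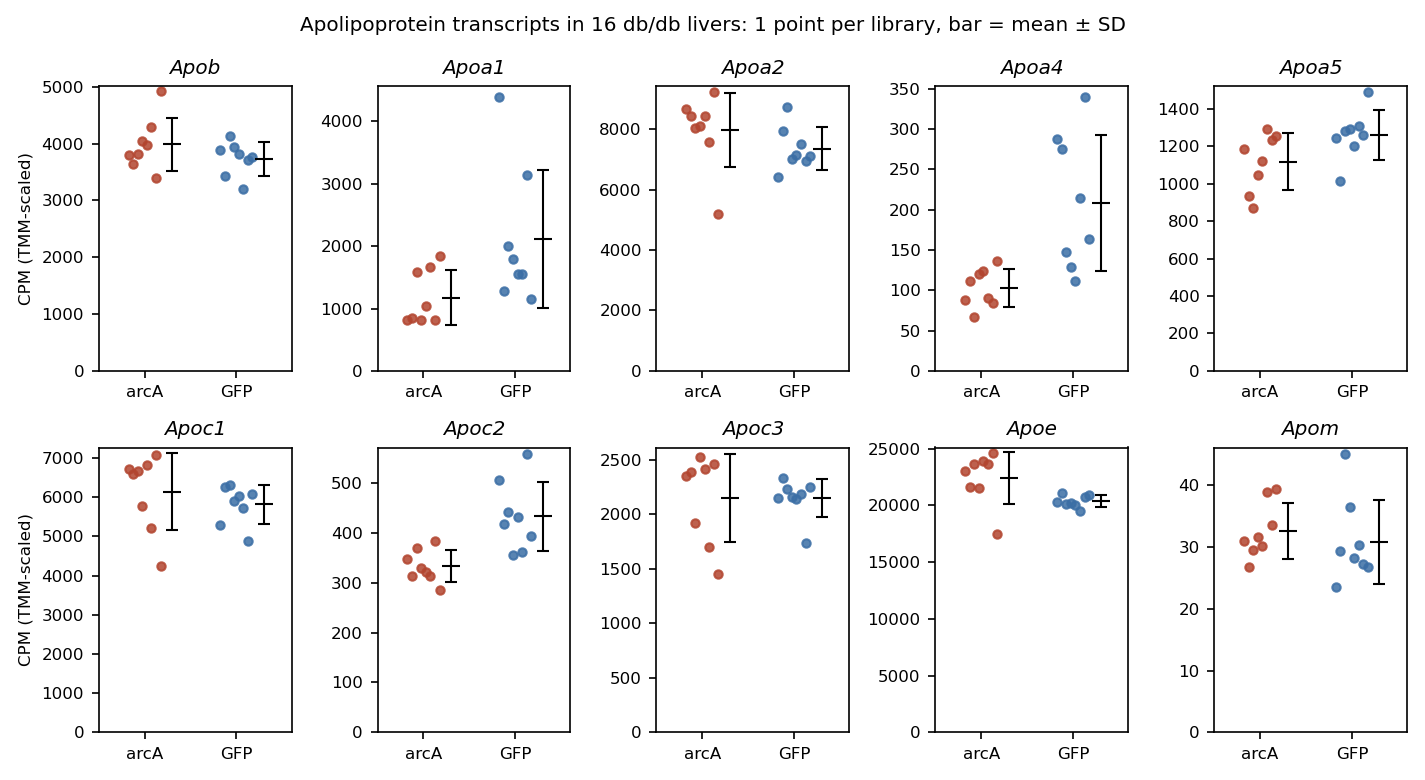
Each panel plots TMM-scaled CPM (linear axis from 0) of 1 apolipoprotein gene, with 1 point per liver, arcA left and GFP right, and a bar for the mean ± SD of 8 livers. Apoa4 and Apoc2 lay lower in arcA livers, Apoa1 spread most among GFP livers (1149 to 4383 CPM), and arcA 8 was the lowest arcA liver for Apoa2, Apoc1, Apoc2, Apoc3 and Apoe.

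Apob encodes the scaffold of very low density lipoprotein, 1 molecule of which stays with each particle. Its transcript ranged from 3400 to 4926 CPM in arcA livers (median 3894) and from 3193 to 4131 CPM in GFP livers (median 3786). The groups overlapped along most of their range. Its log2 fold change was 0.10 (SE 0.0777, adjusted p = 0.493, edgeR).

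Apoa1 encodes the main structural protein of high density lipoprotein and the activator of LCAT, the enzyme that esterifies cholesterol on it. Its level ran from 809 to 1835 CPM in arcA livers (median 947), against 1149 to 4383 CPM in GFP livers (median 1673). Within the arcA group, replicates 3, 6 and 8 lay at 1585, 1659 and 1835 CPM, and the other 5 livers between 809 and 1043 CPM. The 2 highest values of all were GFP 1 (4383 CPM) and GFP 7 (3139 CPM), and 7 of 8 arcA livers lay below the GFP median. The log2 fold change of -0.84 (SE 0.299) had an adjusted p of 0.0879 by edgeR and did not pass. Without GFP 1 and 7 it was -0.42 (adjusted p = 0.33, edgeR), and without arcA 3 and 8 it was -1.08 and passed (adjusted p = 0.0467, edgeR). Each of these choices takes livers with high Apoa1 out of a single group, so it moves the difference by itself. With all livers, the fold change of Apoa1 passed with scaling on hepatocyte genes (-1.08, adjusted p = 0.0223, edgeR). That scaling moved the median of all genes to -0.198.

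Apoa2 encodes the second protein of high density lipoprotein and Apom a small carrier of sphingosine-1-phosphate on the same particles. Apoa2 ranged from 5176 to 9224 CPM in arcA livers (median 8269) and from 6405 to 8729 CPM in GFP livers (median 7139). The lowest arcA value, from replicate 8, stood apart from the other 7 arcA livers, which had 7586 CPM or more. Apom ranged from 26.8 to 39.3 CPM in arcA livers (median 31.3) and from 23.5 to 45 CPM in GFP livers (median 28.8). Both had 7 of 8 arcA livers above the GFP median. By edgeR, the log2 fold change was 0.11 for Apoa2 (adjusted p = 0.519) and 0.08 for Apom (adjusted p = 0.735), and neither passed.

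Apoa4 encodes an apolipoprotein of intestine and, in mice, of liver, whose hepatic transcript is known to rise with fasting and with fat accumulation. It ranged from 67.4 to 136 CPM in arcA livers (median 101), against 111 to 340 CPM in GFP livers (median 189). All 8 arcA livers lay below the GFP median, as did all 8 for 9.42% of all genes, and the groups overlapped between 111 and 136 CPM. GFP 7, 1 and 2 were the highest livers, at 340, 288 and 275 CPM. Apoa4 averaged 103 ± 23.6 CPM in arcA livers and 209 ± 84.2 CPM in GFP livers (SD, n = 8 each). Its log2 fold change was -1.02, with an SE of 0.237 and an adjusted p of 0.0127 by edgeR. Without GFP 1 and 7, a choice made after the values were seen, it was -0.77 (adjusted p = 0.0492). With the replicate number as a block, it was -0.95 and did not pass (adjusted p = 0.0704).

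An antisense gene, Gm10680, covers 34.8% of the exon bases of Apoa4 and had 0 counts in every library. Gm47528, also on the opposite strand, covers 34.9% of them and had no line of that name in the count table. How the counting treated strand is not stated, so reads of Apoa4 and of these genes cannot be told apart. Markers of intestinal epithelium, the other main source of Apoa4, were nearly absent apart from Fabp2 and Lgals4. Of the 10 genes in that list these 2 were tested, 0 passed, and the other 8 had at most 14 counts over the arcA group and 38 over the GFP group. The summed level of the list was 69.2 to 92.2 CPM in arcA livers and 68.1 to 158 CPM in GFP livers.

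Apoa5 encodes a low-abundance plasma protein that promotes triglyceride breakdown by lipoprotein lipase. It ranged from 871 to 1289 CPM in arcA livers (median 1154), against 1013 to 1490 CPM in GFP livers (median 1269), and 7 of 8 arcA livers lay below the GFP median. Its log2 difference of -0.17 (SE 0.0879) did not pass (adjusted p = 0.227, edgeR). It passed only with scaling on hepatocyte genes, at -0.38 (adjusted p = 0.00857), among the alternatives run. An antisense gene, Gm47544, covers 20.8% of the exon bases of Apoa5 and had no line of that name in the count table.

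**Figure D2:**
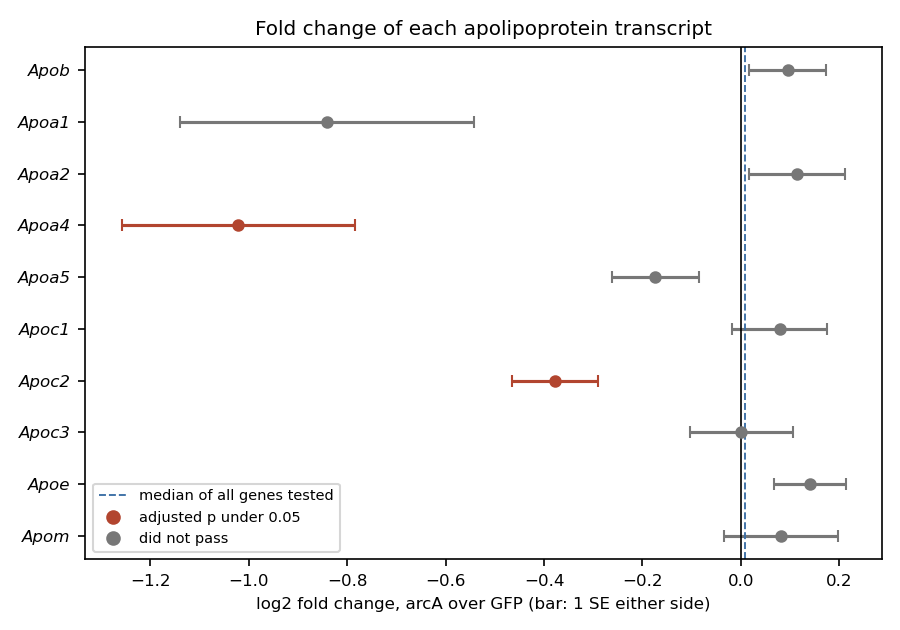
Points give the log2 fold change of arcA over GFP livers from edgeR for each of the 10 genes, with bars of 1 SE either side (n = 8 livers each) and a dashed line at the median of all genes tested, 0.009. Apoa4 (-1.02) and Apoc2 (-0.38) passed the test, and Apoa1 (-0.84) had the widest bar.

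The 3 apolipoproteins C act on the lipases of plasma. Apoc2 encodes the obligate cofactor of lipoprotein lipase, the enzyme that hydrolyses triglyceride in circulating particles. Its level ran from 286 to 384 CPM in arcA livers (median 325), against 355 to 557 CPM in GFP livers (median 425). All 8 arcA livers lay below the GFP median, and only arcA 3 and arcA 7 (369 and 384 CPM) lay within the GFP range. The log2 fold change of Apoc2 was -0.38, with an SE of 0.0879 and an adjusted p of 0.00841 by edgeR. GFP 7 and GFP 1 were again the highest livers, at 557 and 505 CPM, and without them the value was -0.28 (adjusted p = 0.0252). Gm44805, a read-through gene of Apoc4 and Apoc2, covers 79.5% of the exon bases of Apoc2 on the same strand. It had no line of that name in the count table, which kept genes with 0 counts. Whether the annotation behind the counts held it under another name is not known. The Apoc2 counts, and the fold and ratio made from them, may thus not cover all reads of the gene.

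Apoc3 encodes an inhibitor of lipoprotein lipase and of remnant uptake, the counterpart of Apoc2. It ranged from 1450 to 2524 CPM in arcA livers (median 2368) and from 1739 to 2331 CPM in GFP livers (median 2172). The log2 fold change was 0.001 (SE 0.104, adjusted p = 0.996, edgeR), and its sign turned with the scaling. The arcA livers split here as they did for Apoa1, since replicates 3, 6 and 8 had 1918, 1699 and 1450 CPM and the other 5 had 2352 CPM or more. GFP 7 was the lowest GFP liver at 1739 CPM, and the other 7 had 2140 to 2331 CPM.

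Apoc1 encodes a small protein that hinders remnant uptake and inhibits the cholesteryl ester transfer protein, which mice lack. It ranged from 4252 to 7087 CPM in arcA livers (median 6629) and from 4891 to 6307 CPM in GFP livers (median 5968). The log2 fold change was 0.08 (SE 0.0963, adjusted p = 0.677, edgeR). Apoc4, its neighbour and no member of the 10, averaged 497 ± 70.9 CPM in arcA livers and 552 ± 103 CPM in GFP livers (SD, n = 8 each), a log2 fold change of -0.15 that did not pass (adjusted p = 0.414). It was -0.074 without GFP 3 and -0.018 without GFP 2, 3 and 5, and it passed with scaling on hepatocyte genes (-0.346, adjusted p = 0.0233).

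Apoe was the most abundant of the 10 by counts. It ranged from 17452 to 24659 CPM in arcA livers (median 23368) and from 19495 to 21110 CPM in GFP livers (median 20277). Its coefficient of variation was 10.2% in arcA livers and 2.61% in GFP livers, against a median over all genes tested of 13.2% in arcA livers and 14.3% in GFP livers. Without arcA 8, left out here because it was the lowest, the other 7 lay between 21502 and 24659 CPM and all above the highest GFP liver. The share of all genes that separate after such a removal was not computed, so this separation has no background to be read against. The log2 fold change was 0.14 (SE 0.073, adjusted p = 0.243, edgeR) with all livers and 0.17 without arcA 8 (adjusted p = 0.0723), and neither passed.

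A ratio of 2 genes counted in the same library does not depend on how libraries are scaled, so clustered neighbours were set against each other. Apoc2 stood at 0.0132 to 0.0164 of the Apoe count in arcA livers (median 0.0152), against 0.0176 to 0.0268 in GFP livers (median 0.0207). The groups did not overlap. The share of other gene pairs whose ratio separates the groups was not computed, so this separation has no background to be read against. The ratio takes in both the fall of Apoc2 (log2 fold change -0.38) and the higher value of Apoe (0.14), which did not pass. The mean log2 ratio was -6.07 ± 0.108 in arcA livers and -5.57 ± 0.214 in GFP livers (SD, n = 8 each), a difference of -0.50. A two-sided exact permutation test gave p = 0.000155, the smallest that 8 against 8 livers allow, and an adjusted p of 0.000777 over the 5 ratios. Without GFP 1 and 7 the difference was -0.40 (adjusted p = 0.00167, exact permutation test).

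Apoc1 stood at a ratio to Apoe of 0.22 to 0.304 in arcA livers and 0.236 to 0.313 in GFP livers, with a log2 difference of -0.07 (adjusted p = 0.454, exact permutation test). In the chromosome 9 cluster, the ratio of Apoa4 to Apoa1 differed by -0.17 on the log2 scale (adjusted p = 0.6, exact permutation test), with medians of 0.106 in arcA livers and 0.0908 in GFP livers. Apoc3 over Apoa1 had medians of 2.56 in arcA livers and 1.29 in GFP livers, and Apoa5 over Apoa1 of 1.09 in arcA livers and 0.746 in GFP livers. Their log2 differences were 0.76 and 0.60, each with an adjusted p of 0.116 by exact permutation test, so neither passed. Without arcA 3 and 8 they were 1.08 and 0.84, and both passed (adjusted p = 0.0255 each, exact permutation test). These livers are among those with the most Apoa1 in the arcA group (1585 and 1835 CPM). Leaving them out therefore raises both arcA ratios over Apoa1 by itself, and nothing is concluded from these 2 calls.

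**Figure D3:**
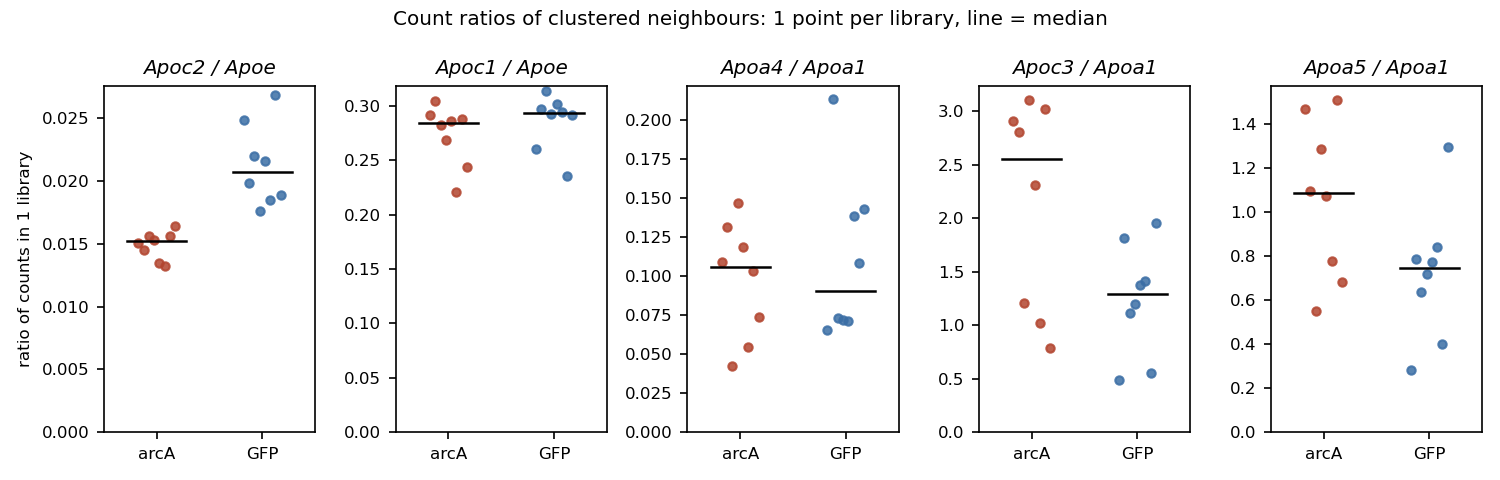
Each panel plots the ratio of the raw counts of 2 clustered genes in each liver (linear axis from 0), arcA left and GFP right, with a line at the median of 8 livers. The ratio of Apoc2 to Apoe separated the groups, with at most 0.0164 in arcA livers and at least 0.0176 in GFP livers, and the other 4 ratios overlapped.

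The spread between mice differed widely among the 10 genes. The coefficient of variation was largest for Apoa1, at 37.4% in arcA livers and 52.5% in GFP livers, and next for Apoa4, at 23.0% in arcA livers and 40.4% in GFP livers. The median over the 10 genes was 14.6% in arcA livers and 10.1% in GFP livers. Apob, at 11.7% in arcA livers and 7.97% in GFP livers, was among the steadier genes.

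Among arcA livers, those with more Apoa1 had less of its neighbour Apoc3. Replicates 3, 6 and 8, with 1585 to 1835 CPM of Apoa1, had 1450 to 1918 CPM of Apoc3, and the other 5 livers, with 809 to 1043 CPM of Apoa1, had 2352 to 2524 CPM of Apoc3. Apoa2, on another chromosome, was likewise lower in the first set, at 5176 to 8040 CPM, than in the second, at 8101 to 9224 CPM. These sets of 3 and 5 livers were seen in the values themselves, no relation within a set was tested, and no correlation with Apoa1 over the 8 arcA livers is read here. In the 8 GFP livers, Pearson's r of log2 CPM was -0.57 for Apoa1 with Apoc3 and Spearman's rho was -0.69, and neither passed (exact permutation test, adjusted p = 0.293 and 0.167 over 12 relations). Without GFP 1 and 7, the 2 livers farthest from the Apoa1 median, r was -0.49, and without GFP 1 alone it was -0.868 (exact permutation test, adjusted p = 0.0732). It was -0.105 without TMM scaling and -0.107 relative to hepatocyte genes, so its size depended on the scaling. For Apoa2 with Apoa1 in GFP livers, r was -0.49 and rho was -0.50 (exact permutation test, adjusted p = 0.322 and 0.432), and r was -0.55 without GFP 1 and 3. Without GFP 1 alone it was -0.114, without TMM scaling -0.111 and relative to hepatocyte genes -0.019.

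Apoc1 with Apoe had r = 0.81 and rho = 0.81 in arcA livers (exact permutation test, p = 0.0321 and 0.0218, adjusted p = 0.0962 and 0.112), and r was 0.81 without arcA 6 and 8. Without arcA 8 alone r was 0.313 (exact permutation test, adjusted p = 0.63) and without arcA 6 alone 0.968 (adjusted p = 0.00714). Its size thus varied with which single liver was left out. In GFP livers r was -0.02 and rho was 0.12 (exact permutation test, adjusted p = 0.952 and 0.793), and r was 0.66 without GFP 1 and 7. Apoc2 with Apoc1 had r = 0.78 and rho = 0.79 in arcA livers (exact permutation test, adjusted p = 0.0847 and 0.112), and r fell to 0.45 without arcA 7 and 8, so that it rested on those livers. In GFP livers the same pair had r = -0.66 and rho = -0.26 (exact permutation test, adjusted p = 0.172 and 0.699), and r was -0.38 without GFP 4 and 7. None of these relations passed, and differences between the groups were not tested. Apoa4 had r = 0.51 and rho = 0.31 with Apoa1 in GFP livers, and r was 0.33 without GFP 5 and 7. With Apoa5 it had r = 0.26 and rho = 0.24 in arcA livers (r = -0.71 without arcA 3 and 8) and r = -0.30 and rho = -0.17 in GFP livers (r = -0.58 without GFP 5 and 7). The adjusted p of these Apoa4 relations was 0.322 or higher by exact permutation test.

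**Figure D4:**
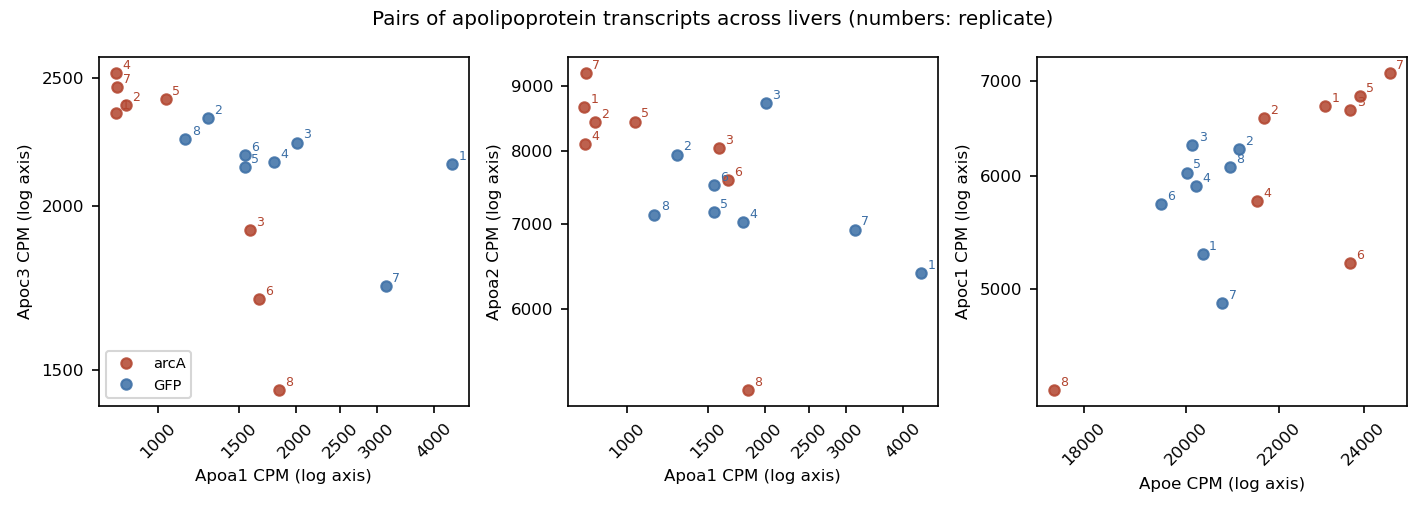
Each point is 1 liver, numbered by replicate, with TMM-scaled CPM of 1 gene against another on log axes. Among arcA livers, replicates 3, 6 and 8 combined high Apoa1 (1585 to 1835 CPM) with low Apoc3 (1450 to 1918 CPM), and arcA 8 lay apart for Apoa2 and Apoe.

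The libraries also differed in the balance of short and long transcripts, which may bear on genes as unlike in length as Apoa2 and Apob. The median log2 level of 263 tested genes with less than 1000 exon bases, minus that of 5412 genes with more than 5000, was -0.273 in arcA 8 and -0.161 in arcA 6 and lay between -0.053 and 0.165 in the other arcA livers. It lay between -0.088 and 0.263 in GFP livers. In arcA 8, with the lowest balance, Apob was at its highest arcA level (4926 CPM) and Apoa2, Apoc1, Apoc2, Apoc3 and Apoe were at their lowest arcA levels. Apoa1, Apoa4 and Apom were also at their highest arcA levels there. By exon bases, Apoa2 (537), Apoc1 (744) and Apoc2 (813) would fall in the short class. Apoc3 (1014), Apoe (2138), Apoa1 (1236), Apoa4 (1815) and Apom (1013) would fall in neither class. In arcA 3 the balance was 0.075, with Apoa1 at 1585 CPM and Apoc3 at 1918 CPM. The part of transcript length in these values was not tested.

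Among 21 other genes with apolipoprotein names, 15 were tested, of which 2 rose and 1 fell, at a median log2 fold change of 0.08. Apobr, a macrophage receptor for apolipoprotein B48, fell by 1.12 (adjusted p = 0.00539, edgeR), with 0.558 ± 0.193 CPM in arcA livers and 1.21 ± 0.421 CPM in GFP livers (SD, n = 8 each). Apon rose by 0.29 (adjusted p = 0.0341) and Apol7a by 0.23 (adjusted p = 0.0279). When libraries were left out singly, Apon missed the threshold in 7 of 16 edgeR fits (adjusted p up to 0.0796) and Apol7a in 8 (adjusted p up to 0.0632). With scaling on hepatocyte genes neither passed, at 0.081 for Apon and 0.027 for Apol7a.

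Genes that build, take up and remodel lipoproteins moved in small numbers, each list being read against the 10.8% of all genes that passed. Of 21 tested genes of lipoprotein assembly and secretion, 2 rose and 1 fell. The changes were in the apolipoprotein B mRNA editing pair and in Mia3, an export receptor of the endoplasmic reticulum. Apobec1, the deaminase of that editing complex, fell by 0.38 (SE 0.0999, adjusted p = 0.0171, edgeR), and A1cf, its RNA-binding partner, rose by 0.20 (SE 0.0544, adjusted p = 0.0212). Mia3 rose by 0.21 (adjusted p = 0.0427). Editing itself cannot be read from gene counts. The call of Apobec1 was lost without GFP 1 and 7 (-0.30, adjusted p = 0.0756) and without GFP 2, 3 and 5 (-0.38, adjusted p = 0.0616). A1cf lost its call without arcA 2 or arcA 6 (adjusted p = 0.0577 and 0.0524) and Mia3 in 14 of 16 edgeR fits that each left out a library (adjusted p up to 0.11). Neither rise passed with library size alone (adjusted p = 0.144 for A1cf and 0.146 for Mia3), without GFP 1 and 7 (adjusted p = 0.0983 and 0.215) or with scaling on hepatocyte genes, where A1cf was -0.003 and Mia3 was 0.012. Mttp, which loads lipid onto apolipoprotein B, had 286 ± 19.7 CPM in arcA livers and 294 ± 30.4 CPM in GFP livers (SD, n = 8 each; log2 fold change -0.04, adjusted p = 0.785, edgeR).

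Of 15 tested lipoprotein receptor and uptake genes, 1 rose and 1 fell. Mylip, a ubiquitin ligase that limits lipoprotein uptake, fell by 0.61 (SE 0.109, adjusted p = 0.00129, edgeR), with 4.46 ± 0.522 CPM in arcA livers and 6.80 ± 1.25 CPM in GFP livers (SD, n = 8 each). Sdc1, a proteoglycan that binds remnants, rose by 0.37 (adjusted p = 0.0237), but missed the threshold once GFP 7 was left out (adjusted p = 0.051), without arcA 3 and 8 (0.277, adjusted p = 0.0584) and with scaling on hepatocyte genes (0.173, adjusted p = 0.185).

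Of 15 tested genes of plasma lipases, lipid transfer and their regulators, 1 rose and 3 fell. Lpl, the lipase that the Apoc2 product activates, fell by 1.62 (SE 0.204, adjusted p = 0.000198, edgeR), with 11.9 ± 3.68 CPM in arcA livers and 36.3 ± 11.5 CPM in GFP livers (SD, n = 8 each). All 8 arcA livers lay below the GFP median for Lpl. Pla2g7, a phospholipase carried on lipoproteins, had a log2 fold change of -0.92 (adjusted p = 0.00233). Abcg1, a cholesterol exporter of macrophages and other cells, had one of -0.86 (adjusted p = 0.01). Lcat, whose enzyme needs apolipoprotein A-I, rose by 0.30 (SE 0.0589, adjusted p = 0.00277), with 471 ± 33.8 CPM in arcA livers and 383 ± 27.3 CPM in GFP livers. Lcat did not pass with scaling on hepatocyte genes (0.10, adjusted p = 0.238).

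Of 31 transcription factors known to act on apolipoprotein genes, all 31 were tested, 3 rose and 0 fell. Mlxipl, the carbohydrate response factor, rose by 0.49 (adjusted p = 0.00729, edgeR), and the nuclear receptor gene Nr5a2 by 0.24 (adjusted p = 0.0279). Nr5a2 missed the threshold in 6 of 16 edgeR fits that each left out a library (adjusted p up to 0.0731). Neither passed with scaling on hepatocyte genes, and Mlxipl did not without GFP 2, 3 and 5 (adjusted p = 0.06). Hnf4a had a log2 fold change of 0.15 and did not pass (adjusted p = 0.221). Creb3l3, which drives Apoa4, Apoa5 and Apoc2 in mouse liver, did not pass (adjusted p = 0.999), at 230 ± 15.2 CPM in arcA livers and 230 ± 21.2 CPM in GFP livers (SD, n = 8 each).

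Of 17 tested genes that lie beside the 2 clusters or between their members, 1 passed: Tagln, a contractile gene of stromal cells near the Apoa1 cluster, fell by 0.70 (adjusted p = 0.00236, edgeR). It is also a hepatic stellate cell marker, a list in which 9 of 12 tested genes fell.

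Part of the markers of macrophages, which also transcribe Apoe, Apoc1 and Apoc2, fell in arcA livers. Of 20 Kupffer cell and macrophage genes, 11 fell and 0 rose, at a median log2 fold change of -0.69. Their summed level was 205 to 639 CPM in arcA livers and 431 to 697 CPM in GFP livers, and 0 of the 20 were at 0 counts in all libraries. Without GFP 1 and 7, 3 of these 20 genes fell, and without GFP 2, 3 and 5 the number was 5. Of 14 lipid-associated macrophage genes, Lpl included, 6 fell and 0 rose. Of the T and natural killer cell markers, 12 were tested and 12 fell, with a summed level of 1.63 to 6.61 CPM in arcA livers and 21.4 to 47.1 CPM in GFP livers, and 6 of 6 tested B and plasma cell markers fell. Of 24 tested hepatocyte markers, 3 rose and 0 fell, at a median of 0.21. The part of other cells in the falls of Apoc2 and Apoa4 was not tested. In bulk tissue, fewer cells of a type and less RNA per cell cannot be told apart.

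The genes whose levels followed Apoa4 most closely from liver to liver, after removal of the group means, were Trim7 (r = 0.90), Endod1 (0.86), Nabp1 (0.84), Lamc1 (0.83) and Bcl2l13 (0.83). These are Pearson correlations over 16 libraries, the highest among tested genes averaging 1 CPM or more. Genes with predicted-gene (Gm and digits), Rik or clone names were left out of this ranking. The values are given as a description. Of the 5, Nabp1 fell by 0.39 (adjusted p = 0.0322, edgeR) and Lamc1, a laminin chain, fell by 0.37 (adjusted p = 0.00188), while Trim7, Endod1 and Bcl2l13 did not pass (adjusted p = 0.0912, 0.0519 and 0.813).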

How the data were processed

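Oligo-dT libraries of liver RNA from 16 db/db mice were sequenced, and the table deposited by the authors holds unnormalized counts by gene symbol. Per the submitters' processing notes, bcl2fastq, STAR 2.5.1a and featureCounts 1.4.6-p5 (Subread) were used with GRCm38. The sources used here do not give the annotation release, strand setting or handling of mates. Of 40757 lines, 348 exact copies were removed, and of 85 further lines with a repeated symbol (47 counts in all) the line with more counts was kept. Of counts from 1 to 20, 69.8% were even, and how many separate fragments a count stands for is not known.

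Groups came from the labels. The test was edgeR 4.0.16 (R 4.3.3; robust quasi-likelihood F test, TMM, filterByExpr, group as the only term) with Benjamini-Hochberg adjustment over all genes tested. SEs are the log2 fold change over the square root of F. Ratios and correlations used exact permutation tests. The labels do not say that libraries of a group are separate litters or extractions, so p-values measure the spread between these samples. Levels per kilobase used the longest APPRIS principal transcript of GENCODE M21. The members, lists and tests were chosen with earlier results of these data known. Named genes were the 10 members, Mttp, Lcat, Lpl, Apoc4, Creb3l3 and Hnf4a. Further named genes were those tested with the smallest p of each list (up to 4, given where they passed). The 5 genes most like Apoa4, without predicted-gene, Rik and clone names, were also named. Some genes that this rule takes are not reported here.

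Alternatives were RLE, upper-quartile, library-size and hepatocyte-gene scaling (14 genes), no filter, 1 CPM in 8 libraries, DESeq2 1.42.0, limma 3.58.1 voom with quality weights, the replicate number as a block, the Gm42418 share as a covariate, and libraries left out. On simulated counts for the 14476 genes of this comparison, 70.1% of 67 genes changed 1.5-fold, 91.0% of 67 changed 2-fold and 98.5% of 66 changed 4-fold were recovered. Of 14151 unchanged genes, 9 were called. The changed genes were far fewer than those that passed in the data. They were drawn only from genes above a floor of mean counts, so these shares do not cover genes with few counts.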

Additional observations from a re-analysis of the deposited data

Results flagged for a closer look

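In 80 groups of 8 livers, the highest or lowest liver was checked for a gap to the others above the critical share of the group's range in Dixon's test, which chance passes in about 1 in 20 groups, and 7 passed. The liver arcA 8 stood apart in 4 of them. It had 5176 CPM of Apoa2, where the other arcA livers had 7586 to 9224 CPM, and 17452 CPM of Apoe, where the others had 21502 to 24659 CPM. It also had 611 CPM of Sdc1, where the others had 352 to 465 CPM, and 40.2 CPM of Bcl2l13, where the others had 34.9 to 37.2 CPM. The liver GFP 7 had 1739 CPM of Apoc3, where the other GFP livers had 2140 to 2331 CPM, and 62.5 CPM of Lpl, where the others had 24.0 to 37.2 CPM. The liver arcA 6 had 10.8 CPM of Apobec1, where the other arcA livers had 6.87 to 8.58 CPM.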

How the results depend on the processing

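The falls of Apoa4 and Apoc2 kept their direction in every alternative run. Apoa4 ranged from -1.12 to -0.89 (adjusted p up to 0.0269, edgeR) and Apoc2 from -0.43 to -0.32 (adjusted p up to 0.0176) when 1 library was left out, with 0 members higher and 2 lower each time. The labels do not say whether the replicate numbers pair livers. After removal of the group means, the correlation of same-numbered libraries ran from -0.0487 to 0.159 and exceeded 0.1 for 2 of 8 numbers. Of 8 arcA libraries, 1 correlated best with its own number. Such values cannot exclude that the numbers pair livers. With the replicate block, 1 member was lower (Apoc2; Apoa4 had -0.95, adjusted p = 0.0704, edgeR), 592 genes were higher and 876 lower, and the ratio of Apoc2 to Apoe differed by -0.50 (adjusted p = 0.0391, exact sign-flip test).

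Of all genes, 618 were higher and 951 lower. Higher genes numbered 253 with library size alone, 76 with hepatocyte-gene scaling, 407 with 1 CPM in 8 libraries, 369 without GFP 2, 3 and 5, 315 without GFP 1 and 7, and 389 to 620 without 1 library. Rises were 39.4% of the calls, 24.0% with library size alone and 2.0% with hepatocyte-gene scaling, which moved the median of all genes to -0.198, called 3724 genes and 4 members lower (Apoa1 and Apoa5 in addition) and turned 9 values negative: Apoa2 (-0.087), Apob (-0.105), Apoc1 (-0.121), Apoc3 (-0.192), Apoe (-0.067), Apom (-0.115), Creb3l3 (-0.201), Hnf4a (-0.042) and A1cf (-0.003). Of these 9, Creb3l3 passed there (adjusted p = 0.0382). Values near 0 also turned elsewhere. Apoc3 was -0.007 with RLE and with DESeq2, -0.015 with upper-quartile scaling, -0.016 with library size alone, -0.022 with 1 CPM in 8 libraries, -0.019 with the block, -0.057 without GFP 1 and 7, and -0.04 to 0.055 without 1 library. Creb3l3 was -0.007 with RLE and DESeq2, -0.018 with upper-quartile scaling and library size, -0.023 with 1 CPM in 8 libraries, -0.033 without arcA 3 and 8, and -0.035 to 0.031 without 1 library. Without GFP 1 and 7, Apom was -0.016 and Mttp 0.015. Without 1 library Mttp ranged from -0.078 to 0.003.

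Without arcA 3 and 8 the log2 difference of Apoa4 over Apoa1 was 0.062, of Apoc3 over Apoa1 1.083 and of Apoa5 over Apoa1 0.838. The correlations with Apoa1 over all 8 arcA livers pooled 2 sets of livers. They were -0.94 for Apoc3 and -0.73 for Apoa2 (adjusted p = 0.0173 each, exact permutation test), and neither passed without arcA 3, arcA 6 or arcA 8 (adjusted p up to 0.169 and 0.281). Without 1 library, correlations in arcA livers ranged as follows: Apoa1 with Apoc3 from -0.96 to -0.926, Apoa2 with Apoa1 from -0.823 to -0.694, Apoa4 with Apoa1 from -0.491 to 0.317, Apoa4 with Apoa5 from -0.352 to 0.408, Apoc1 with Apoe from 0.313 to 0.968 (called without arcA 6) and Apoc2 with Apoc1 from 0.589 to 0.857 (called without arcA 2). In GFP livers Apoc1 with Apoe ranged from -0.288 to 0.336. It was 0.514 as a share without TMM, and Apoa4 with Apoa5 was 0.331 there and 0.168 relative to hepatocyte genes, where Apoa4 with Apoa1 in arcA livers was 0.105. The causes were not tested. With 8 livers a group, wide spreads such as that of Apoa1 limit what could be called.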
